A study of Mus musculus with 76 samples.

Results

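The data described here are the transcript levels of 10 CC chemokine ligands, Ccl2, Ccl3, Ccl4, Ccl5, Ccl6, Ccl7, Ccl8, Ccl9, Ccl17 and Ccl22, in whole subcutaneous mouse tumors exposed to catalase. The 10 genes were taken by symbol from a table of 55536 genes, of which 34366 had a count in any tumor, and all 10 passed the filter on low counts in each of the 8 comparisons made. RNA of 38 tumors grown in BALB/c mice was measured with HT3DGE, which sequences only a stretch close to the 3′ end of a transcript, in 2 technical libraries per tumor. CT26, a colorectal carcinoma line, and 4T1, a mammary carcinoma line, were each injected with CAT-ABP + alum (n = 6 tumors) or with alum alone (n = 5). CAT-ABP is human catalase joined to an alum-binding peptide, a form meant to be retained, mostly outside cells, where it is injected, and alum is an aluminum hydroxide particle that every control also received. The line 4T1-CAT carries a lentiviral construct that makes human catalase in the cytosol, together with GFP, when doxycycline is given, and 4T1-control makes GFP alone. Of the 4T1-CAT tumors 5 were given CAT-ABP + alum and 5 were given alum, as were 6 tumors of 4T1-control. Mice received 1000000 cells of CT26 but 500000 cells of 4T1, 4T1-CAT or 4T1-control, so the number of cells differed with the parental line. The labels give doxycycline to the 4T1-CAT and 4T1-control mice only, from day 4, and for every group the injection on day 6 of 20 µg CAT-ABP where given and 100 µg alum, with the harvest on day 8. The study's own timeline puts each of these steps a day later. The mice were female and 6 to 12 weeks old by the study's methods. Each engineered line was selected with puromycin and sorted for GFP, and the human transgene is not among the mouse genes of the table, so its level could not be checked.

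CC chemokines are small secreted proteins with a pair of adjacent cysteines near the N terminus. They bind G protein-coupled receptors on leukocytes and guide them from blood into tissue along a gradient of ligand. In tumors they are known mainly for drawing in monocytes, which become macrophages, and T cells. Ccl2 and Ccl7 are ligands best known for recruiting monocytes through Ccr2. Ccl3, Ccl4 and Ccl5 attract T cells and macrophages, and Ccl3 and Ccl5 act on Ccr1. Ccl6 and Ccl9 are rodent ligands of Ccr1 made largely by myeloid cells. Ccl17 and Ccl22 are the ligands of Ccr4, found on regulatory and type 2 helper T cells, and are made by dendritic cells and alternatively activated macrophages.

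The members lie in 3 places of the mouse genome (GRCm38, GENCODE M21). Ccl2, Ccl7 and Ccl8 occupy chr11:82035571-82116799, on the plus strand, and Ccl5, Ccl9, Ccl6, Ccl3 and Ccl4 occupy chr11:83525778-83664683, all but Ccl4 on the minus strand. Ccl22 and Ccl17 are neighbours at chr8:94745590-94812036, on the plus strand. The RefSeq promoter table for GRCm38.p6, with 250 bases before and 50 after each transcription start, held 6 of the 10 members, not Ccl2, Ccl4, Ccl5 and Ccl7. The promoters of Ccl6 and Ccl9 are shown because these paralogs varied together between tumors of a group. Capitals mark the identical bases of their best local alignment, 36 of 40 aligned positions (90%, match 1, mismatch -1, gap -3), which scored 32 against 8 to 12 for the other 14 pairs of members' promoters. The aligned stretch covers bases 226 to 265 of the Ccl6 window and 260 to 299 of the Ccl9 window. It thus spans the transcription start in Ccl6 and lies wholly after it in Ccl9.
Ccl6, chr11:83593038-83593337, minus strand: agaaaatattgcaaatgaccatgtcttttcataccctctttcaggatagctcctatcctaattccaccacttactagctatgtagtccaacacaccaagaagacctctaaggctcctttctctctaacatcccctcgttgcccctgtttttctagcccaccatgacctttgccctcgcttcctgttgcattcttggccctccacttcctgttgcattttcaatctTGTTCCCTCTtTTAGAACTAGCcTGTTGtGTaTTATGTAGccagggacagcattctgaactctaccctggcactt
Ccl9, chr11:83578587-83578886, minus strand: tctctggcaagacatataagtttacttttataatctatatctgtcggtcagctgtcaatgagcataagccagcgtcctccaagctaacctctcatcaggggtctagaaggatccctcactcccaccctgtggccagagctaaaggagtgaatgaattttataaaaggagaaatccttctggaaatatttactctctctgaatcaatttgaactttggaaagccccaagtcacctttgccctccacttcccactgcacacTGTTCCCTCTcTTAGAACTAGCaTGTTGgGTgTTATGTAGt
The Ccl8 promoter is shown because Ccl8 varied together with both, and its capitals mark the letters TATAAA, which were found on either strand in 2 of the 6 members (Ccl8 and Ccl9) and in 13.6% of 32851 promoters.
Ccl8, chr11:82114935-82115234, plus strand: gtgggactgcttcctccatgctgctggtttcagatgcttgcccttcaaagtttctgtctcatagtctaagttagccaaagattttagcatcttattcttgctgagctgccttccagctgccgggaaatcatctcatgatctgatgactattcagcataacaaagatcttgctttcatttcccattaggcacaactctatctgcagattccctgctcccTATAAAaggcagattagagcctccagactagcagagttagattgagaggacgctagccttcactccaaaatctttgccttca
The Ccl17 promoter is shown because Ccl17 passed the test as lower in CT26 than in 4T1 in both treatments. Its capitals mark TTC and GAA with 4 or 3 bases between them, palindromes of the kind bound by STAT factors, which only Ccl17 held among the 6 members and which occurred in 6.95% (4 bases) and 8.3% (3 bases) of all promoters. The NF-kB motif was found in Ccl9 alone (4.51% of all promoters), and GAGGAA, the core bound by PU.1, in Ccl3, Ccl8 and Ccl17 (28.3%).
Ccl17, chr8:94810203-94810502, plus strand: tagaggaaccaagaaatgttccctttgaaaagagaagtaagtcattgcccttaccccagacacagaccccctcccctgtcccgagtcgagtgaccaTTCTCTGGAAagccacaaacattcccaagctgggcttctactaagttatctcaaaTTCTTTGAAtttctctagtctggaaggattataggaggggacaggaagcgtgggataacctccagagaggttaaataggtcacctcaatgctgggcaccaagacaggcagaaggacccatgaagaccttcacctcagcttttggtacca
These matches describe letters within a 300-base window and were not tested as binding sites.

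The deposited values were estimated counts, which were summed over both libraries of a tumor and are given as CPM, counts per 1000000 counts after TMM scaling, a scale on which a gene is compared between tumors and not with another gene. Tumors held 493044 to 9077549 counts, and 2 of them fell under 1000000, 4T1-control replicate 2 (493044) and 4T1 CAT-ABP + alum replicate 4 (837403). All 76 libraries were closest to another library of the same parental line, but only 9 were closest to the other library of their own tumor. The members agreed unequally between both libraries of a tumor. After group means were removed, in the 32 tumors whose libraries both reached 0.25 of the median library total, Pearson's r was 0.954 for Ccl8 and 0.947 for Ccl6, lay between 0.727 and 0.894 for Ccl2, Ccl3, Ccl4, Ccl5, Ccl7 and Ccl9, and was 0.469 for Ccl22 and 0.252 for Ccl17, the members with the fewest counts. Over all 38 tumors, which the comparisons use with both libraries summed, it was 0.943 for Ccl8 and 0.917 for Ccl6, lay between 0.542 and 0.806 for Ccl2, Ccl4, Ccl5, Ccl7 and Ccl22, and was 0.357 for Ccl3, 0.251 for Ccl9 and 0.097 for Ccl17. The first part of each library's index tag was read here as its sequencing pool, a meaning that the header does not give. By this reading 1 pair of pools held all CT26, all 4T1 CAT-ABP + alum and 2 of the 5 4T1 alum tumors. Another pair held the remaining tumors. Epcam, Krt8 and the other epithelial markers summed to 1948 to 2882 CPM in 4T1 alum tumors and 40.7 to 85.3 CPM in CT26 alum tumors. In whole-tumor RNA, fewer cells of a type and less RNA per cell cannot be told apart.

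CT26 and 4T1 tumors given alum were compared to describe how the ligands differ between the tumor models, which differ also in the number of cells inoculated. All 10 members passed the test, 8 higher in CT26 and 2, Ccl17 and Ccl22, lower (edgeR's quasi-likelihood test, Benjamini-Hochberg adjusted p at or under 0.05), where 42.5% of 12817 genes passed, 21.2% in each direction. The median log2 fold change of the members was 1.79, against 0.020 over all genes tested. The values of the 2 lines did not overlap for 8 of the 10 members, all but Ccl3 and Ccl22, against 29.9% of all genes. Ccl2, the main attractant of Ccr2-positive monocytes, lay at 1325, 1032, 1350.2, 2013 and 1515 CPM in the 5 CT26 tumors and at 327, 215, 352, 173 and 431 CPM in the 5 4T1 tumors. Every CT26 tumor was above every 4T1 tumor, and the log2 fold change was 2.27 ± 0.27 (SE), 4.83-fold (adjusted p = 4.56e-06). Its neighbour Ccl7 lay at 1691, 1497, 1730.1, 2456 and 1971 CPM in CT26 and at 581, 396, 549.6, 370.0 and 759 CPM in 4T1. Again no tumor of 1 line entered the range of the other, with a log2 fold change of 1.82 ± 0.23 (adjusted p = 1.28e-05). Ccl8, a ligand made by macrophages, lay at 7686, 10821, 6150.2, 9332 and 5720.5 CPM in CT26 and at 1952, 1268, 1043, 1446 and 1933 CPM in 4T1. The lowest CT26 tumor stood well above the highest 4T1 tumor, and the log2 fold change was 2.38 ± 0.27 (adjusted p = 3.37e-06).

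**Figure D1:**
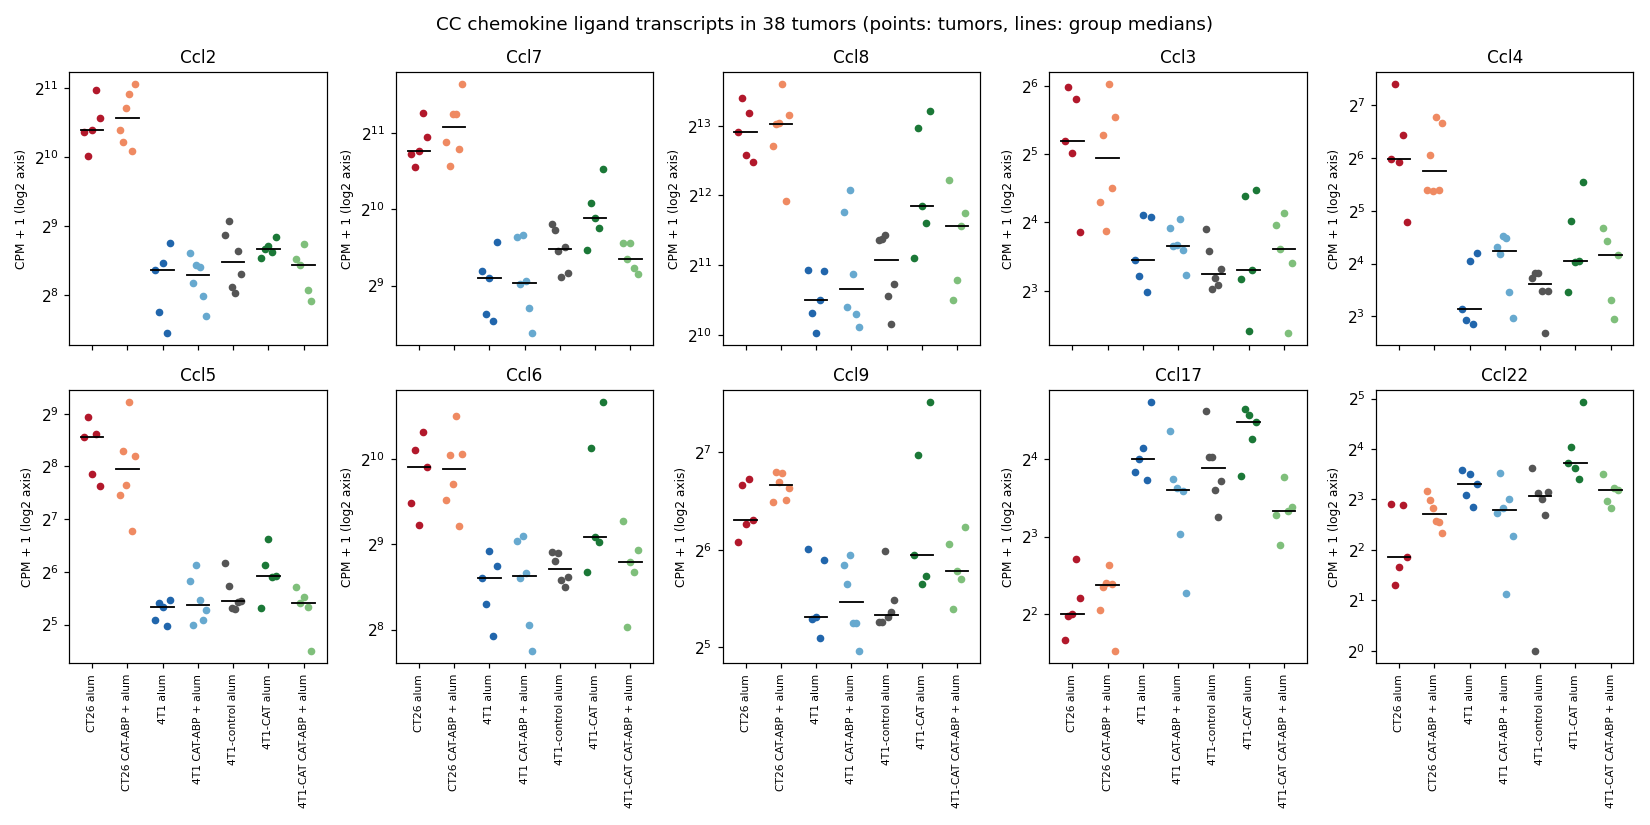
Level of each ligand in every tumor, as CPM + 1 on a log2 axis, with 1 point for each of the 38 tumors, the 7 groups along the horizontal axis and a line at each group median. The CT26 groups stand above the 5 groups of 4T1 and its derivatives for Ccl2, Ccl7 and Ccl5 and below them in median for Ccl17, and tumors 2 and 5 of 4T1-CAT alum stand apart for Ccl6, Ccl8 and Ccl9.

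Ccl5 had the largest of the 10 log2 fold changes. Ccl5, which activated T cells and NK cells secrete, lay at 376, 491, 231, 390.3 and 198 CPM in CT26 and at 33.1, 41.4, 39.3, 30.4 and 43.4 CPM in 4T1. The 4T1 tumors were tightly grouped and all under the lowest CT26 tumor, with a log2 fold change of 3.17 ± 0.25, 9.0-fold (adjusted p = 4.74e-08). Ccl4, a ligand made by activated macrophages, NK cells and T cells, lay at 61.9, 167, 59.5, 85.8 and 26.7 CPM in CT26 and at 7.85, 6.61, 15.6, 6.22 and 17.5 CPM in 4T1. Replicate 2 was the highest and replicate 5 the lowest of the CT26 tumors, still above all 4T1 tumors, and the log2 fold change was 2.87 ± 0.48 (adjusted p = 4.25e-04). Ccl3, encoded beside Ccl4, lay at 35.4, 62.3, 31.5, 55.1 and 13.5 CPM in CT26 and at 9.90, 8.33, 16.2, 6.93 and 15.9 CPM in 4T1. Here CT26 replicate 5 fell inside the range of 4T1, and the log2 fold change was 1.76 ± 0.36 (adjusted p = 0.00113).

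Both rodent Ccr1 ligands were higher in CT26. Ccl6 lay at 717, 1103, 600.1, 1273 and 956 CPM in CT26 and at 387, 315, 486, 243 and 427 CPM in 4T1, without overlap, for a log2 fold change of 1.32 ± 0.24 (adjusted p = 3.86e-04). Ccl9 lay at 66.8, 101, 75.9, 105 and 78.1 CPM in CT26 and at 63.1, 38.2, 38.7, 33.2 and 58.3 CPM in 4T1. The groups were separated by a narrow gap, between 85.3 ± 16.7 and 46.3 ± 13.4 CPM (mean ± SD, n = 5 each), and the log2 fold change was 0.89 ± 0.19 (adjusted p = 0.00151).

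The Ccr4 ligands were lower in CT26. Ccl17 lay at 2.17, 2.92, 3.0, 5.56 and 3.61 CPM in CT26 and at 13.3, 14.9, 16.7, 12.3 and 25.6 CPM in 4T1. All CT26 tumors were under all 4T1 tumors, with a log2 fold change of -2.28 ± 0.28, 4.84-fold lower (adjusted p = 7.87e-06). Ccl22 lay at 6.52, 1.46, 2.18, 6.44 and 2.65 CPM in CT26 and at 10.9, 7.47, 10.4, 6.22 and 8.88 CPM in 4T1. CT26 replicates 1 and 4 reached the lower end of the 4T1 range, and the log2 fold change was -1.14 ± 0.35 (adjusted p = 0.0163). At 6 to 22 counts for Ccl17 and 3 to 33 for Ccl22 in a CT26 alum tumor, both rest on few reads. With the 2 4T1 alum tumors that shared pools with CT26 alone as the reference, the log2 fold change of Ccl22 was -1.23 (adjusted p = 0.0988) and that of Ccl9 0.74 (adjusted p = 0.0511), and the other 8 members still passed, where 3729 of 13600 genes did. Without CT26 alum replicate 3, Ccl22 had an adjusted p of 0.0509.

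In the tumors given CAT-ABP + alum, 6 CT26 against 6 4T1 in the same pair of pools, 8 members were again higher and Ccl17 lower in CT26, where 45.4% of 13016 genes passed, 21.7% higher and 23.7% lower. Values did not overlap for 6 members, Ccl2, Ccl4, Ccl5, Ccl6, Ccl7 and Ccl9, against 22.3% of all genes. No tumor is shared with the alum comparison. Ccl2 spanned 1089 to 2132 CPM (median 1515) in CT26 against 205 to 390.3 CPM (median 312) in 4T1, with a log2 fold change of 2.33 ± 0.21 (adjusted p = 3.91e-08). Ccl5 spanned 109 to 595 CPM (median 246) in CT26 against 30.8 to 68.6 CPM (median 40.4) in 4T1, with a log2 fold change of 2.61 ± 0.35 (adjusted p = 1.51e-05). Neither ligand overlapped between the lines, as under alum alone. The log2 fold changes of the other higher members were 1.92 for Ccl7, 1.83 for Ccl8, 2.07 for Ccl4, 1.5 for Ccl3, 1.25 for Ccl6 and 1.11 for Ccl9, with SE between 0.16 and 0.34 and adjusted p between 2.63e-06 and 9.90e-04. Ccl17 spanned 1.88 to 5.22 CPM (median 4.17) in CT26 against 3.82 to 19.5 CPM (median 11.2) in 4T1, where replicate 6 of 4T1 lay inside the CT26 range, and its log2 fold change was -1.56 ± 0.31 (adjusted p = 4.92e-04). For Ccl22 the log2 fold change was -0.12 ± 0.28 with a 95% interval of -0.70 to 0.46 (adjusted p = 0.766), so that no difference was detectable between 5.83 ± 1.48 CPM in CT26 and 5.73 ± 3.14 CPM in 4T1 (mean ± SD, n = 6 each), means whose order is opposite to the sign of the fitted change.

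**Figure D2:**
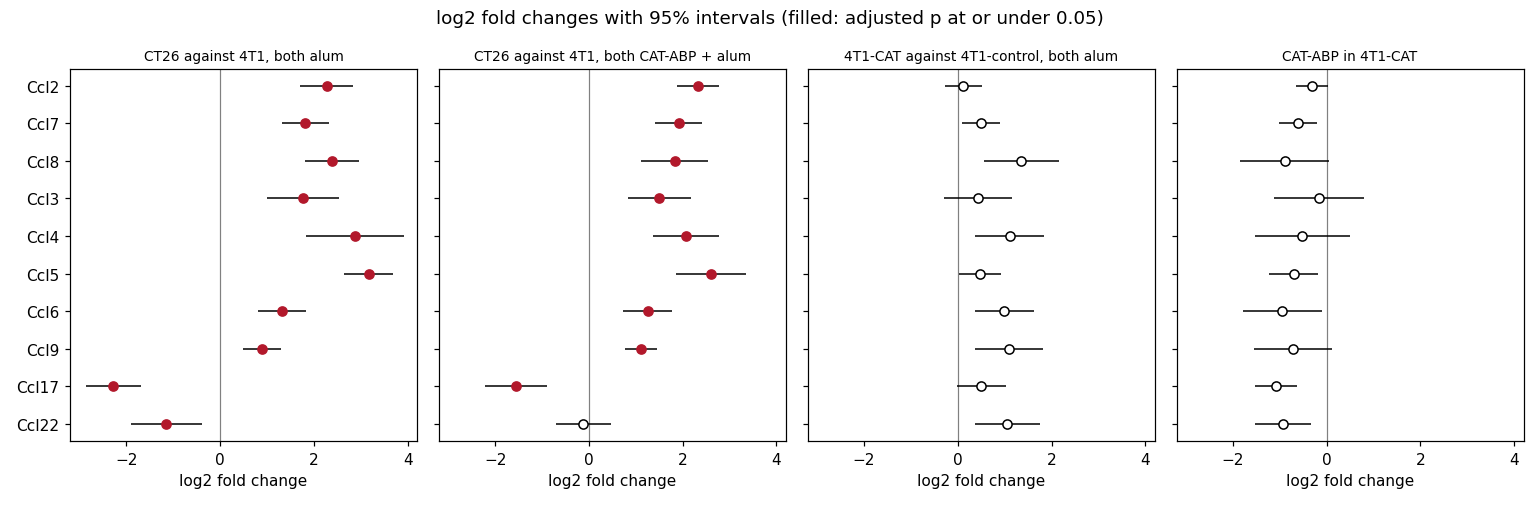
log2 fold change of each ligand in 4 comparisons, with horizontal lines for 95% intervals and filled points for adjusted p at or under 0.05 (edgeR). In CT26 against 4T1 the points are filled for all 10 ligands under alum and for 9 under CAT-ABP + alum, and none is filled in either comparison of 4T1-CAT.

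Some cell type markers differed with the line as well, and their part in the differences of the ligands was not tested. Of all genes, 21.2% passed as higher and 21.2% as lower in CT26 under alum, and 21.7% and 23.7% under CAT-ABP + alum. The macrophage and monocyte counts under alum and the neutrophil and dendritic cell counts lie near these shares. The 9 T and NK cell markers summed to 652 to 966 CPM in CT26 alum and 30.4 to 41.3 CPM in 4T1 alum, and all 8 that could be tested were higher in CT26 in both treatments. The 10 macrophage and monocyte markers summed to 1099.8 to 1485 CPM in CT26 alum against 780.1 to 968 CPM in 4T1 alum, and 3 passed as higher there and 6 under CAT-ABP + alum. The neutrophil sums overlapped at 54.4 to 92.4 CPM and 66.2 to 96.6 CPM. Of 5 neutrophil markers tested, 1 was higher under alum and 2 under CAT-ABP + alum, and Ly6g, which defines the cell type, was at 0 in 18 of the 38 tumors. The dendritic cell sums were 20.2 to 40.9 CPM and 30.4 to 42.1 CPM, with 1 of 6 markers higher and 1 lower in each treatment. Fibroblast markers, at 1349 to 2655 CPM against 2336 to 2841 CPM, had 4 of 7 lower and 1 higher in CT26 in each treatment, and all 6 epithelial markers tested were lower in CT26 in each.

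**Figure D3:**
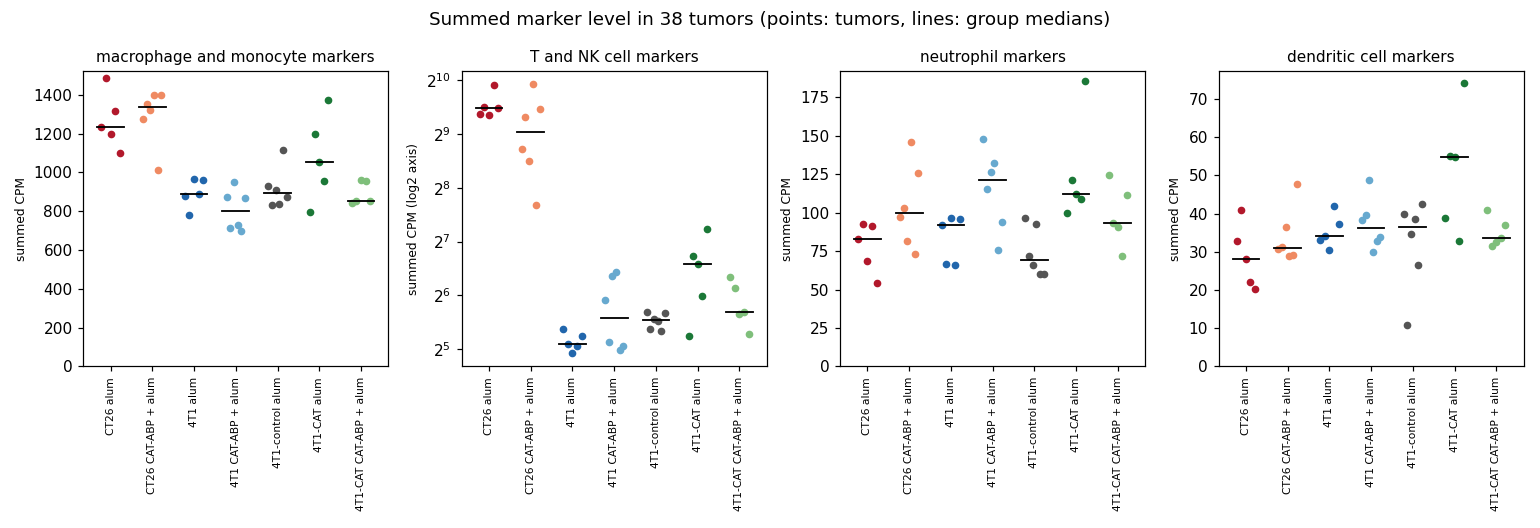
Summed CPM of 4 lists of cell type markers in each of the 38 tumors (points) with group medians (lines), on a log2 axis for T and NK cell markers and a linear axis from 0 for the others. The T and NK cell sum is 652 to 966 CPM in CT26 alum and 30.4 to 41.3 CPM in 4T1 alum, and tumor 5 of 4T1-CAT alum is the highest of its group for all 4 lists.

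Few of the other CC ligands were abundant enough to test. Of 11, 4 were tested under alum and 5 under CAT-ABP + alum. Ccl24, an eosinophil attractant, was lower in CT26 in both treatments, at 1.68 ± 0.802 against 17.8 ± 4.82 CPM under alum (mean ± SD, n = 5 each, log2 fold change -3.49 ± 0.30, adjusted p = 1.64e-07). Ccl12, a mouse ligand of Ccr2 encoded between Ccl7 and Ccl8, and Ccl11, an eosinophil attractant beside it, passed as higher in CT26 only under CAT-ABP + alum, with log2 fold changes of 1.23 ± 0.21 and 0.85 ± 0.26 there and of 0.55 ± 0.24 and 0.66 ± 0.28 under alum, a difference between treatments that was not tested. Among 14 CC receptors, 7 could be tested in each treatment, and 4 passed in each, all higher in CT26. Of all genes, 21.2% passed as higher under alum and 21.7% under CAT-ABP + alum. Ccr2, the receptor of Ccl2 and Ccl7, was higher in both, by 1.12 ± 0.26 under alum (adjusted p = 0.00266) and 0.83 ± 0.16 under CAT-ABP + alum (adjusted p = 2.81e-04) on the log2 scale. Ccrl2, which binds a chemoattractant without signaling, was higher in both as well. Ccr9 was among those that passed under alum and not under CAT-ABP + alum, and Ccr3 and Ccr7 passed under CAT-ABP + alum and not under alum, again without a test of the difference. Ccr1, shared by Ccl3, Ccl5, Ccl6 and Ccl9, had a log2 fold change of 0.15 ± 0.18 under alum, with a 95% interval of -0.22 to 0.53. Ccr4, the receptor of Ccl17 and Ccl22, was at 0 in 28 of the 38 tumors.

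Injection of CAT-ABP was compared with alum alone to ask whether the anchored enzyme altered the ligands. None of the 10 members passed the test in CT26 or in 4T1, where 0% of 12830 and of 13092 genes passed, and none had an unadjusted p under 0.05, against 2.41% and 2.81% of all genes. DESeq2 called none of them either. In CT26 the log2 fold changes lay between -0.27 ± 0.37 for Ccl5 (95% interval -1.06 to 0.52) and 0.57 ± 0.35 for Ccl22 (95% interval -0.17 to 1.32). Ccl8 was 8135 ± 2799 CPM with the enzyme (n = 6) and 7942 ± 2147 CPM without it (mean ± SD, n = 5), and Ccl2 was 1562 ± 422 CPM and 1447 ± 361 CPM. In 4T1 the log2 fold changes lay between -0.56 ± 0.29 for Ccl17 (95% interval -1.17 to 0.042) and 0.53 ± 0.33 for Ccl8 (95% interval -0.17 to 1.23). Ccl8 spanned 1107 to 4314 CPM (median 1611) with the enzyme, where replicates 1 and 3 were the highest, and lay at 1952, 1268, 1043, 1446 and 1933 CPM with alum. The groups overlapped for all 10 members in both lines, where 0.296% of genes in CT26 and 0.367% in 4T1 did not overlap. No member passed the test of the difference between the CAT-ABP effects in CT26 and in 4T1, an interaction term (0% of 14160 genes passed, adjusted p = 1 for all 10 members), in which 3.55% of genes and 1 member, Ccl22, had an unadjusted p under 0.05. That difference of log2 fold changes, CT26 minus 4T1, was 1.05 ± 0.47 for Ccl22 (95% interval 0.095 to 2.0).

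Intracellular catalase was examined by setting 4T1-CAT against 4T1-control tumors, both given alum and doxycycline. No member passed the test, where 0% of 12534 genes passed with edgeR and 6 genes, none of them a member, with DESeq2. All 10 members had a log2 fold change above 0, and 7 had an unadjusted p under 0.05, against 5% of all genes. The groups overlapped for every member, where 0.63% of genes did not overlap. Ccl6, Ccl8 and Ccl9 were listed for intracellular catalase from these same tumors when the data were first described, so their direction is not independent evidence. Ccl8 lay at 2200.4, 8027, 3684, 3120.3 and 9445 CPM in the 5 4T1-CAT tumors and at 2618, 2665, 2760.4, 1511, 1138 and 1695 CPM in the 6 4T1-control tumors. Tumors 2 and 5 stood far above the rest and tumor 1 lay inside the control range, with a log2 fold change of 1.36 ± 0.37 (95% interval 0.55 to 2.16, adjusted p = 0.716). Ccl6 lay at 407, 1115, 541, 519 and 1625 CPM in 4T1-CAT and at 478, 448, 477, 383, 361 and 391 CPM in 4T1-control. The same 2 tumors were highest, and the log2 fold change was 1.0 ± 0.30 (adjusted p = 0.716). Ccl9 lay at 60.6, 124, 49.1, 52.05 and 182 CPM in 4T1-CAT and at 37.3, 37.1, 62.4, 38.6, 40.1 and 43.7 CPM in 4T1-control. Only tumors 2 and 5 exceeded every control, and the log2 fold change was 1.09 ± 0.34 (adjusted p = 0.716).

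Ccl4 and Ccl22 also had an unadjusted p under 0.05. Ccl4 lay at 10.02, 27.04, 15.3, 15.5 and 45.6 CPM in 4T1-CAT and at 12.3, 13.1, 13.1, 10.2, 5.43 and 10.2 CPM in 4T1-control, for a log2 fold change of 1.11 ± 0.35 (adjusted p = 0.716). Ccl22 lay at 12.2, 15.6, 11.3, 9.60 and 29.5 CPM in 4T1-CAT and at 11.4, 0, 7.80, 7.03, 5.43 and 7.88 CPM in 4T1-control, where the value of 0 belongs to the shallowest tumor, for a log2 fold change of 1.06 ± 0.33 (adjusted p = 0.716). In both genes tumor 5 was highest and the groups overlapped. The log2 fold changes of Ccl7 (0.50 ± 0.20) and Ccl5 (0.47 ± 0.21) had an unadjusted p under 0.05 too, while those of Ccl17 (0.50 ± 0.25), Ccl3 (0.44 ± 0.35) and Ccl2 (0.12 ± 0.19) did not. Tumors 2 and 5 were the highest 4T1-CAT alum tumors for 7 of the 10 members, all but Ccl2, Ccl5 and Ccl17, and exceeded every control tumor for the same 7. Tumors 2 and 5 were then left out, a choice made after seeing that they were highest, so that smaller changes over the 3 remaining tumors follow from the choice and are given as values alone. Ccl8 was at 0.50, Ccl22 at 0.56, Ccl9 at 0.28, Ccl6 at 0.17 and Ccl3 at -0.35. Without any filter on low counts, Ccl4, Ccl6, Ccl9 and Ccl22 passed, among 99 of 28475 genes (adjusted p = 0.00209, 0.000136, 0.000946 and 0.0214). Their log2 fold changes hardly moved, but their SE was smaller, 0.18 for Ccl6 and 0.21 for Ccl9. Why the SE fell was not tested, so these passes are given as values alone.

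Marker sums of other cells were higher in several 4T1-CAT alum tumors than in the controls, and their part in these values was not tested. T and NK cell markers summed to 37.8, 106, 95.98, 63.4 and 151 CPM in tumors 1 to 5, against 40.1 to 51.8 CPM in 4T1-control. Macrophage and monocyte markers summed to 794, 1196, 1056, 956 and 1371 CPM, against 832 to 1114 CPM. Tumors 2 and 5 were the highest of the 5 for both lists. Neutrophil markers, at 99.9 to 186 CPM, were above the control range of 60.3 to 96.5 CPM in all 5 tumors. Dendritic cell markers summed to 74.2 CPM in tumor 5, 55.1 in tumor 2 and 54.9 in tumor 3, against 10.9 to 42.4 CPM in the controls, and fibroblast markers to 5834 CPM in tumor 5 and 2753 to 5834 CPM over the group, against 2045 to 3002 CPM. Tumor 5 was thus highest for all 5 lists, while tumor 2 did not stand apart from tumor 3 in the dendritic cell sum or from tumors 1 and 4 in the fibroblast sum. All 7 T and NK cell markers tested, all 9 macrophage and monocyte markers, all 5 neutrophil markers and all 7 fibroblast markers had log2 fold changes above 0, as did 4 of 5 dendritic cell markers and 2 of 6 epithelial markers, none of them past the test. As with the ligands, an unadjusted p under 0.05 was frequent in some lists, with 6 T and NK cell, 4 fibroblast and 3 neutrophil markers. It was found for 1 dendritic cell, 1 epithelial and 0 macrophage and monocyte markers, against 5% of all genes. Among the other genes of the pathway, all 6 CC receptors tested were above 0, 2 of them, Ccr7 and Ccr9, with an unadjusted p under 0.05, and of the 4 other CC ligands tested 2 were higher, with Ccl11 at 0.98 ± 0.38.

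In 4T1-CAT tumors, CAT-ABP + alum was set against alum alone, a comparison that shares the 4T1-CAT alum tumors with the one above. No member passed with edgeR, where 0% of 13093 genes passed, all 10 had a log2 fold change under 0, and 5 had an unadjusted p under 0.05, against 15.1% of all genes. With DESeq2, 266 genes passed and Ccl7 was 1 of them, while Ccl3, Ccl4, Ccl17 and Ccl22 were given no adjusted p. Ccl17 lay at 8.75, 6.42, 12.7, 9.02 and 9.42 CPM with CAT-ABP and at 12.7, 23.9, 22.7, 18.1 and 21.2 CPM without it. The highest treated and the lowest untreated tumor lay side by side without overlap (12.68 and 12.70 CPM), as did 0.787% of genes in that direction and 2.91% in either, and the log2 fold change was -1.09 ± 0.21 (95% interval -1.53 to -0.64, adjusted p = 0.117). Ccl7 lay at 753, 649, 752, 600.0 and 569 CPM with CAT-ABP and at 709, 1081, 940.2, 859 and 1468 CPM without it, for a log2 fold change of -0.61 ± 0.19 (adjusted p = 0.193 with edgeR and 0.0318 with DESeq2). Ccl5 lay at 51.6, 41.7, 45.1, 39.3 and 21.7 CPM with CAT-ABP and at 38.6, 69.5, 97.8, 59.2 and 59.7 CPM without it, for a log2 fold change of -0.70 ± 0.24 (adjusted p = 0.225). Both overlapped between the groups at the lowest untreated tumor. The log2 fold changes of the other members were -0.94 for Ccl6, -0.92 for Ccl22, -0.89 for Ccl8, -0.71 for Ccl9, -0.52 for Ccl4, -0.32 for Ccl2 and -0.16 for Ccl3.

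The alum tumors 2 and 5 bore on this comparison too. Without them, again a choice made after seeing the data, 502 of 13599 genes passed, Ccl17 among them (log2 fold change -0.91, adjusted p = 0.0453), and the log2 fold change of Ccl5 was -0.67, whereas Ccl8 was at -0.033, Ccl6 at -0.12, Ccl9 at 0.11, Ccl4 at 0.21 and Ccl3 at 0.62. Ccl17 also passed without a filter on low counts (log2 fold change -1.06 ± 0.20, adjusted p = 0.00387), among 50 of 29708 genes. Its log2 fold change and SE were close to those with the filter, and why it passed was not tested. The marker sums were 38.7 to 80.7 CPM with CAT-ABP against 37.8 to 151 CPM without it for T and NK cells, and 842 to 959 CPM against 794 to 1371 CPM for macrophages and monocytes. Fibroblast markers summed to 2520.2 to 3160.0 CPM and 2753 to 5834 CPM, and their part in the values of the ligands was not tested. All 7 T and NK cell markers, 9 of 10 macrophage and monocyte markers and 7 of 8 CC receptors had log2 fold changes under 0, as did all 7 fibroblast markers and 5 of 6 dendritic cell markers, whereas neutrophil markers were at 3 above and 3 under 0 and 5 of 6 epithelial markers were above 0. None passed. The effect of CAT-ABP in 4T1-CAT did not pass the test of its difference from that in 4T1 for any member, where 0% of 13851 genes passed and 8.71% of genes and 4 members had an unadjusted p under 0.05. Those differences of log2 fold changes, 4T1-CAT minus 4T1, were -1.42 ± 0.60 for Ccl8 (95% interval -2.68 to -0.17, adjusted p = 0.543), -1.0 ± 0.47 for Ccl6, -0.94 ± 0.33 for Ccl5 (95% interval -1.62 to -0.27, adjusted p = 0.529) and -0.69 ± 0.32 for Ccl7.

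Tumors with both catalases, 4T1-CAT given CAT-ABP + alum, were also set against 4T1-control given alum. No member passed, where 2 of 12781 genes (0.0156%) did, and 2 members had an unadjusted p under 0.05, against 16.8% of all genes, Ccl17 at -0.57 ± 0.24 and Ccl9 at 0.40 ± 0.17 on the log2 scale (adjusted p = 0.232 and 0.234). The groups overlapped for every member, where 1.98% of genes did not. The highest log2 fold change among the members was 0.60 ± 0.31, for Ccl4. The engineered control line was compared with its parent, 4T1-control against 4T1, both given alum, which differ also in doxycycline. Again no member passed, where 2 of 12431 genes (0.0161%) did, and Ccl7 alone had an unadjusted p under 0.05, against 10.4% of all genes, at 0.42 ± 0.20 (95% interval 0.013 to 0.83, adjusted p = 0.453). The groups overlapped for every member here too, where 1.16% of genes did not. The log2 fold changes of the members lay between -0.35 ± 0.26 for Ccl3 and 0.43 ± 0.24 for Ccl8.

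The mean levels of the 7 groups were put in order for each ligand. For Ccl2, Ccl3, Ccl4, Ccl5, Ccl6, Ccl7 and Ccl8 both CT26 groups came first, followed by 4T1-CAT alum. By median 4T1-CAT alum also came next for Ccl2, Ccl5, Ccl6, Ccl7 and Ccl8. It did not for Ccl3 (8.83 CPM, against 11.6 CPM in 4T1 with CAT-ABP) or Ccl4 (15.5 CPM, against 18.0 CPM). Ccl2, for example, stood at 1562 ± 422 CPM and 1447 ± 361 CPM in CT26 with and without CAT-ABP, then at 409 ± 31.9 CPM in 4T1-CAT alum, 376 ± 111 CPM in 4T1-control alum, 329 ± 74.6 CPM in 4T1-CAT with CAT-ABP, 303 ± 67.5 CPM in 4T1 with CAT-ABP and 299.7 ± 105 CPM in 4T1 alum (mean ± SD). The ranges of neighbouring groups in the order failed to overlap at 1 step only for Ccl2, Ccl5 and Ccl7, between the lower CT26 group and 4T1-CAT alum, and at 1 step for Ccl17, between 4T1-CAT with CAT-ABP and CT26 with CAT-ABP. For the other 6 members every neighbouring pair overlapped. Ccl9 placed 4T1-CAT alum (93.6 ± 58.2 CPM) between both CT26 groups (99.8 ± 9.25 CPM and 85.3 ± 16.7 CPM). Ccl17 and Ccl22 were highest in 4T1-CAT alum, at 19.7 ± 4.49 CPM and 15.6 ± 8.03 CPM, and lowest in CT26 alum, at 3.45 ± 1.29 CPM and 3.85 ± 2.44 CPM.

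Which ligands varied together from tumor to tumor was described by Pearson's r of log2 CPM over the 38 tumors after group means were removed. The tumors share pools and differ in depth, so no p is given. Ccl2 and Ccl7, which lie side by side on chromosome 11 and share Ccr2, had r = 0.86. Ccl3 and Ccl4, also neighbours, had r = 0.80. Ccl6, Ccl8 and Ccl9 formed another group, with r = 0.82 for Ccl6 and Ccl8, 0.81 for Ccl6 and Ccl9, and 0.73 for Ccl8 and Ccl9, although Ccl8 lies in the other cluster of the chromosome. Ccl17 and Ccl22, neighbours on chromosome 8 and ligands of the same receptor, had r = 0.20, and 0.36 without the 2 tumors under 1000000 counts. The values of Ccl22 moved with these tumors, for example from -0.12 to 0.29 with Ccl2 and from 0.18 to 0.43 with Ccl6. Ccl5 had r of 0.54 with Ccl8 at most and 0.11 with Ccl9.

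**Figure D4:**
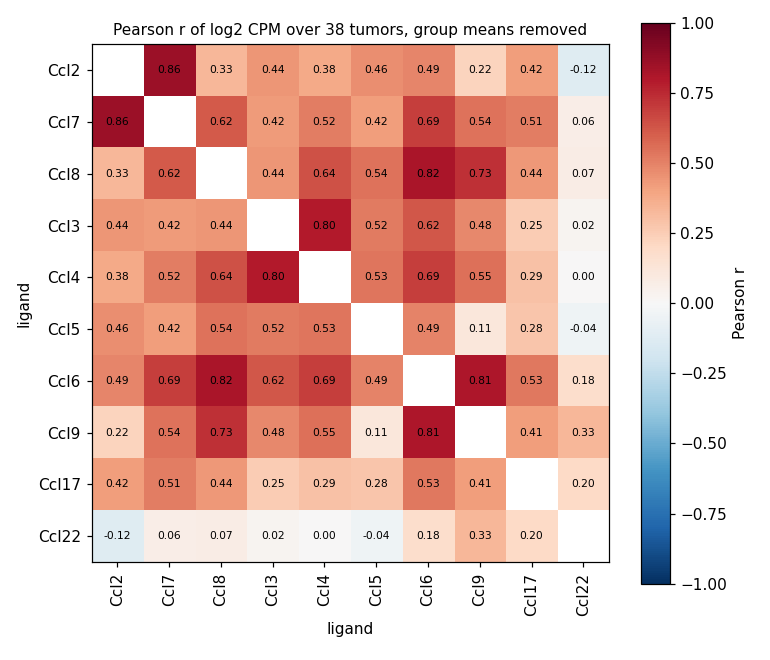
Pearson's r between each pair of ligands over 38 tumors, with group means removed from log2 CPM; the color scale runs from -1 to 1. Ccl2 with Ccl7 (0.86), Ccl6 with Ccl8 (0.82) and Ccl9 (0.81), and Ccl3 with Ccl4 (0.80) stand out, and Ccl22 shows the lowest values, which were between 0.017 and 0.43 without the 2 tumors under 1000000 counts.

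The genes most like each ligand by the same measure, among 10696 genes with a mean of at least 5 CPM, were named for each ligand, up to 3 in number, as a description without a test. Cd163, the hemoglobin scavenger receptor of macrophages, was closest to Ccl8 (r = 0.89), followed by Ccl24 (0.86). Wfdc17, a small protein of macrophages and neutrophils, was closest to Ccl6 (0.90), and Car4, a carbonic anhydrase, was closest to Ccl9 (0.82) and among the 3 closest to Ccl6 (0.86) and Ccl8 (0.84). Beside Ccl7, the genes most like Ccl2 were Alox5ap, needed for leukotriene synthesis, and Capza2. Il1rn, the antagonist of the interleukin 1 receptor, was closest to Ccl3 (0.83), Cxcl5, a neutrophil attractant, to Ccl4 (0.81), and Srgn, the proteoglycan of granules, was among the 3 closest to Ccl3, Ccl4 and Ccl6. For Ccl5 the closest were AW112010 (0.87), the protease gene Ctss (0.85) and Il18bp (0.85), which encodes the binding protein of interleukin 18. Ccl17 reached only 0.66, with Timp1, an inhibitor of metalloproteases. The genes closest to Ccl22, led by Coq10b (0.86), rested on the 2 tumors under 1000000 counts, without which r with Coq10b was 0.30. Against the summed marker lists, Ccl5 and Ccl8 had their highest r with T and NK cell markers (0.73 and 0.69). Ccl4 (0.82), Ccl3 (0.74), Ccl6 (0.72), Ccl7 (0.57), Ccl9 (0.50) and Ccl2 (0.47) had theirs with neutrophil markers over the 38 tumors, although Ccl7 was at 0.56 with T and NK cell markers too, while no list exceeded 0.26 for Ccl17. Ccl9 was also at 0.50 with macrophage and monocyte and with fibroblast markers, and Ccl2 at 0.45 with T and NK cell markers. Without the 2 tumors under 1000000 counts, Ccl7 was at 0.60 with T and NK cell markers and 0.58 with neutrophil markers. The r of Ccl22 with dendritic cell markers was 0.62 over the 38 tumors and 0.13 without the 2 tumors under 1000000 counts.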

How the data were processed

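RNA was extracted from 38 whole tumors and read with HT3DGE, which tags transcripts near their 3′ end, as 2 technical libraries per tumor. The authors aligned and quantified the reads with the Smart-seq2 pipeline and deposited estimated counts per gene, with a fractional part in 39.7% of the values above 0; whether molecular identifiers were collapsed is not given in the sources used here. Counts were summed over both libraries of a tumor and rounded, so that the replicate is the tumor and p-values measure the spread between these tumors. Gene names and positions came from GENCODE M21 (GRCm38) by gene identifier. Each comparison was fitted on its 2 groups alone in R 4.3.3 with edgeR 4.0.16 (filterByExpr with a minimum count of 10, TMM scaling, robust quasi-likelihood test, Benjamini-Hochberg adjustment over all genes tested, threshold 0.05), and the differences between CAT-ABP effects were tested as interaction terms. The code was tested on simulated data with known changes. CPM were TMM-scaled over all 38 tumors, and log2 CPM used a prior count of 2. Libraries held 46233 to 6958626 counts, and 7 of 76 fell under 0.25 of the median. Tumors with the same replicate number did not vary together consistently (r of their deviations -0.41 to 0.41), so the numbers were not used as pairs.

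All 10 members were named in every comparison, together with other CC ligands and receptors past the threshold, of which 1 is counted but not reported here, and the 3 genes most like each member. The members and gene lists were chosen with earlier results of these data known. Alternatives were DESeq2 1.42.0, other scaling, no filter or a stricter one, all 7 groups in 1 fit, a replicate block, a pool term or shared pools, either technical library alone, shallow libraries left out and each tumor left out in turn. A test without robust spread, the omission of tumors under 1000000 counts and the omission of tumors 2 and 5 of 4T1-CAT alum were added after seeing the data. All columns of the table belonged to labelled samples.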

Additional observations from a re-analysis of the deposited data

Results flagged for a closer look

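Among the 70 sets of tumors formed by the 10 ligands in the 7 groups, 3 held a tumor whose gap to its nearest neighbour, as a share of the range, passed Dixon's 95% limit, and chance passes about 1 in 20 such sets. All 3 were in 4T1-control alum. Ccl9 in replicate 3 was 62.4 CPM (200 counts), above 37.1 to 43.7 CPM in the other 5 tumors (gap 0.687 of the range). Ccl4 in replicate 5 was 5.43 CPM (21 counts), under 10.2 to 13.1 CPM in the others (0.714). Ccl22 in replicate 2 was 0, against 5.43 to 11.4 CPM in the others (0.791). Replicate 2 was the shallowest tumor, with 493044 counts, where a count of 0 allows up to 3 counts. These values were not explained further.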

How the results depend on the processing

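The higher levels of 8 ligands in CT26 than in 4T1 kept their direction and passed under all alternatives tried, except Ccl9 under alum with shared pools alone (0.74 on the log2 scale, adjusted p = 0.0511). The lower level of Ccl17 did so wherever it was tested. With technical replicate 2 alone, 9 members were tested in each comparison, without Ccl22 under alum, where all 9 passed, and without Ccl17 under CAT-ABP + alum, where 8 passed. With the sequencing pool as a block, 9 of the 10 members passed under alum, and Ccl22 did not (-1.22, adjusted p = 0.0648), nor did it in shared pools alone (-1.23, adjusted p = 0.0988), while in CT26 against 4T1 with CAT-ABP its small difference turned to 0.22 with technical replicate 2 alone. With tumors left out in turn, 9 to 10 members passed under alum and 9 under CAT-ABP + alum, and the latter value of Ccl22 ranged from -0.21 to 0.15. The numbers of genes called lay at 4839 to 5707 and 5393 to 6396 there, and at 2862 and 3569 with technical replicate 2 alone. The replicate block, which the check of the numbers did not support as a pairing, left 10, 9 and otherwise 0 members called and called 1 gene for CAT-ABP in CT26, 2 for CAT-ABP in 4T1-CAT, 1 for 4T1-CAT with CAT-ABP against 4T1-control and 0 for 4T1-control against 4T1. With this block, Ccl5 (-0.45) and Ccl22 (0.78) for CAT-ABP in CT26 had an unadjusted p of 0.048 and 0.038 in edgeR (adjusted p = 0.942 and 0.909). The log2 fold change for CAT-ABP changed sign under an alternative for Ccl4, Ccl6 and Ccl8 in CT26 and for Ccl2, Ccl3, Ccl6, Ccl7 and Ccl9 in 4T1. For CAT-ABP in CT26, DESeq2 called 1 gene, no filter 2 and single omissions 0 to 1, while CAT-ABP in 4T1 and both interaction tests stayed at 0 to 0 when a tumor was left out.

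For 4T1-CAT against 4T1-control, DESeq2 called 6 genes and no filter 99, 4 of them members, single omissions 0 to 0, and Ccl3 turned to -0.35 without tumors 2 and 5. For CAT-ABP in 4T1-CAT, DESeq2 called 266 genes and 1 member, no filter 50 and 1 member, the omission of tumors 2 and 5 502 and 1 member, and single omissions 0 to 2 genes. There Ccl3 turned to 0.13 with technical replicate 2 alone, ranged from -0.36 to 0.11 with a tumor left out and was 0.62 without tumors 2 and 5, as Ccl4 turned to 0.21 and Ccl9 to 0.11. For Ccl3, the difference of the CAT-ABP effect in 4T1-CAT from that in 4T1 turned to 0.030 with technical replicate 2 alone. It ranged from -0.37 to 0.10 with a tumor left out.

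No member passed under any alternative in the other comparisons. For 4T1-CAT with CAT-ABP against 4T1-control, the genes called were 510 with DESeq2, 1 with RLE scaling, 534 without a filter, 36 in 1 model over all 7 groups, 0 with technical replicate 2, 158 without libraries of low depth, 142 without tumors under 1000000 counts, and 0 to 640 with a tumor left out, the highest without 4T1-control replicate 3. For 4T1-control against 4T1 they were 16 with DESeq2, 1 with RLE scaling, 58 without a filter, 6 in 1 model over all 7 groups, 0 with either technical replicate, 27 without libraries of low depth, 13 without tumors under 1000000 counts, 0 with the pool as a block, 1 in shared pools, 0 without robust spread, and 0 to 15 with a tumor left out, again highest without 4T1-control replicate 3. The cause of these changes was not tested. Low counts limit the precision of Ccl17, Ccl22, Ccl3 and Ccl4, and the agreement of both libraries was lower with shallow libraries included for Ccl9 as well.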
